A study of Mus musculus with 6 samples.

Results

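NRF2 antioxidant response genes are the 10 genes named Nfe2l2, Keap1, Nqo1, Hmox1, Gclc, Gclm, Srxn1, G6pdx, Gsr and Ugdh, all 10 found by name among 54118 gene models of the mouse table. They were followed in primary mouse hepatocytes, the parenchymal cells of the liver, from C57BL/6 animals. Cells of the HuR group (n = 3) received an adenovirus for HuR overnight, and cells of the beta-Gal group (n = 3) received an adenovirus for the bacterial enzyme beta-galactosidase, so both groups carried virus and neither was uninfected. HuR, the product of Elavl1, is an RNA-binding protein that favours AU-rich and U-rich stretches of messenger RNA. Viral dose, the species of the delivered HuR sequence and the number of animals are not given in the sources used here. Replicates are named by number only, and nothing says that they came from separate cultures or animals, so the p-values speak only of the spread among these 6 libraries, possibly a technical one.

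NRF2, encoded by Nfe2l2, is the transcription factor that answers oxidative and electrophilic stress. KEAP1 binds NRF2 and hands it to a CUL3 ubiquitin ligase, which keeps it short-lived. When reactive compounds modify KEAP1, NRF2 accumulates, pairs with a small MAF protein and binds antioxidant response elements in promoters and enhancers. In liver its targets supply glutathione, regenerate NADPH, repair oxidised peroxiredoxins, break down heme and provide the UDP-glucuronate used to conjugate drugs. Since NRF2 is controlled largely as a protein, the level of its messenger RNA is not a measure of its activity.

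The antioxidant response element core, searched as TGACNNNGC on both strands, was present in the promoter window of 5 of 7 genes that have one in the RefSeq table (GRCm38.p6, windows of 300 bases around the gene start of that table). Among all 32851 windows of this table the share was 12.4%. Each match is printed here, 5′ to 3′ on the gene's strand with the match in capitals, because NRF2 is known to bind this element. The Nfe2l2 match lies at chr2:75704885-75704913, that of Gclm at chr3:122245413-122245441, that of Srxn1 at chr2:152105542-152105570 and that of G6pdx at chrX:74428919-74428947. Ugdh has one at chr5:65435956-65435984 and another at chr5:65435918-65435946. The strand is minus for Nfe2l2, G6pdx and Ugdh and plus for Gclm and Srxn1. No match was found in the windows of Keap1 and Nqo1, and those of Hmox1, Gclc and Gsr were not searched.
Nfe2l2: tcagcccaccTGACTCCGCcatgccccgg
Gclm: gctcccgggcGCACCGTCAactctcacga
Srxn1: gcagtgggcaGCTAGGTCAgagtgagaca
G6pdx: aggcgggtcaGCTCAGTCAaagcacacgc
Ugdh: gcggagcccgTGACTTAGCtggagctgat
Ugdh: tcctcaagggGCGTGGTCAtacagttcgg
The gene start of the RefSeq table differs from that of the deposited table for each of these genes but Gclm, so both distances are given. The Nfe2l2 match begins at base -240 from the RefSeq start and -262 from the deposited one, and that of Gclm at -134 from both. The Srxn1 match lies downstream of either start, at 28 and 36. The G6pdx match begins at -57 from the RefSeq start but at 257 from the deposited one, inside that gene model. For Ugdh the distances are -132 and -94 from the RefSeq start, and -25 and 13 from the deposited one. These are matches of letters, not sites shown to be bound.

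The pentamer AUUUA, written ATTTA in the transcript sequences, is the core of AU-rich elements and is shown because HuR was the protein delivered. It occurred at least once in the 3′ UTR of 9 of the 10 genes (1 coding transcript per gene, GENCODE M21), against 66.1% of 9580 tested genes with such a UTR. Gclm held 6 copies in 4335 bases, Gclc 4 in 1234, Gsr 3 in 868, Srxn1 2 in 2184, and Nfe2l2, Nqo1, Hmox1, G6pdx and Ugdh 1 each. Keap1 held none in 635 bases. One copy of Nfe2l2 and of Hmox1, with higher group means in HuR, and of Gsr and Ugdh, with lower ones, is given with the pentamer in capitals. They lie at chr2:75675692-75675720 (minus strand), chr8:75100512-75100540 (plus), chr8:33697491-33697519 (plus) and chr5:65413821-65413849 (minus) on GRCm38.
Nfe2l2: actacagaacttATTTAtactgttctcac
Hmox1: tgggaaagaattATTTAatagttgtaacc
Gsr: tcatttgataatATTTAtaattaatattt
Ugdh: tgtaatcatcaaATTTAtactagctatat
The pentamer was present in genes with higher, lower and overlapping levels in HuR libraries.

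The libraries held 15413306 to 17108184 reads over gene models, recovered from the deposited FPKM (reads scaled to gene model length and library size). The delivered gene separated the groups: Elavl1 had 2434, 1662 and 1709 FPKM in the HuR libraries, against 5.45, 5.91 and 5.62 FPKM in the beta-Gal libraries, a log2 difference of 8.16 (limma adjusted p = 1.16e-06), with no way to tell viral from endogenous reads. The 8 hepatocyte markers summed to 18932 to 20191 FPKM in HuR and 17582 to 17931 FPKM in beta-Gal libraries, most of it Alb. While Alb, Apoh and Serpina1a rose, Cps1 and Tdo2 fell (log2 differences -0.62 and -0.19). The rises were not stable: 0 hepatocyte markers were called higher when any 1 beta-Gal library was left out. The same held with libraries scaled to the same total (TPM scaling), no filter or the replicate number as a block. Quantile normalization also gave 0, but it gives genes of the same rank the same value in every library. Its outcome is therefore a weak test for a gene as abundant as Alb. Of the falls, 1 was left without beta-Gal replicate 1 or 3. Of 7 Kupffer cell and macrophage markers only Cd68 reached the level for testing, and their sum of 31.1 to 40.0 FPKM in HuR against 17.6 to 21.1 FPKM in beta-Gal libraries was nearly all Cd68, while Adgre1 and Clec4f stayed under 0.5 FPKM. Endothelial markers summed to 5.16 to 6.12 FPKM in HuR and 4.08 to 4.43 FPKM in beta-Gal libraries, and the 6 stellate markers to under 1 FPKM in every library. The 5 cholangiocyte markers summed to 180 to 198 FPKM in HuR and 138 to 151 FPKM in beta-Gal libraries, nearly all of it Spp1, with Krt19 and Krt7 under 0.1 FPKM, and the 4 lymphocyte markers stayed under 0.2 FPKM with Nkg7 at 0. The part of other cells in the results was not tested. HuR replicate 1 stood furthest from its group, with a median absolute log2 distance of 0.115 to the other HuR libraries, where the other 5 libraries had 0.0621 to 0.089, and results that turn on it are given with and without it.

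Across the 10 genes the messenger RNAs of the transcription factor and 1 NADPH enzyme rose in HuR libraries. Those of 4 enzymes of glutathione, peroxiredoxin and glucuronate metabolism fell. The test was limma on log2(FPKM + 1) over 11281 genes with Benjamini-Hochberg adjustment and a threshold of 0.05, and log2 differences are on that scale. All 10 genes passed the filter on low values, and 6 passed the threshold, where 45.5% of all tested genes did. Nfe2l2 and G6pdx were the 2 that rose, set against 20.7% of all genes that were higher, and Ugdh, Gsr, Gclm and Srxn1 the 4 that fell, against 24.8% that were lower. The groups did not overlap for 8 of the 10 genes, with 58.1% for all tested genes, so the shares of the 10 genes are read as close to the background. Under TPM scaling, which makes each library sum to the same total, 1543 of all tested genes were higher and 3732 lower, against 2334 and 2803 in the main test, while median centring gave 2885 higher and 2391 lower. No gene of the 10 rose when any 1 beta-Gal library was left out, and 1 rose without HuR replicate 3. Without HuR replicate 1 again 6 of 10 passed (46.8% of all genes), Hmox1 then in place of G6pdx. The median log2 difference of the 10 genes was -0.15 (-0.26 under TPM scaling), and that of all tested genes -0.01 (-0.10 under TPM scaling). With bulk RNA, fewer cells of a type and less RNA per cell cannot be told apart.

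**Figure D1:**
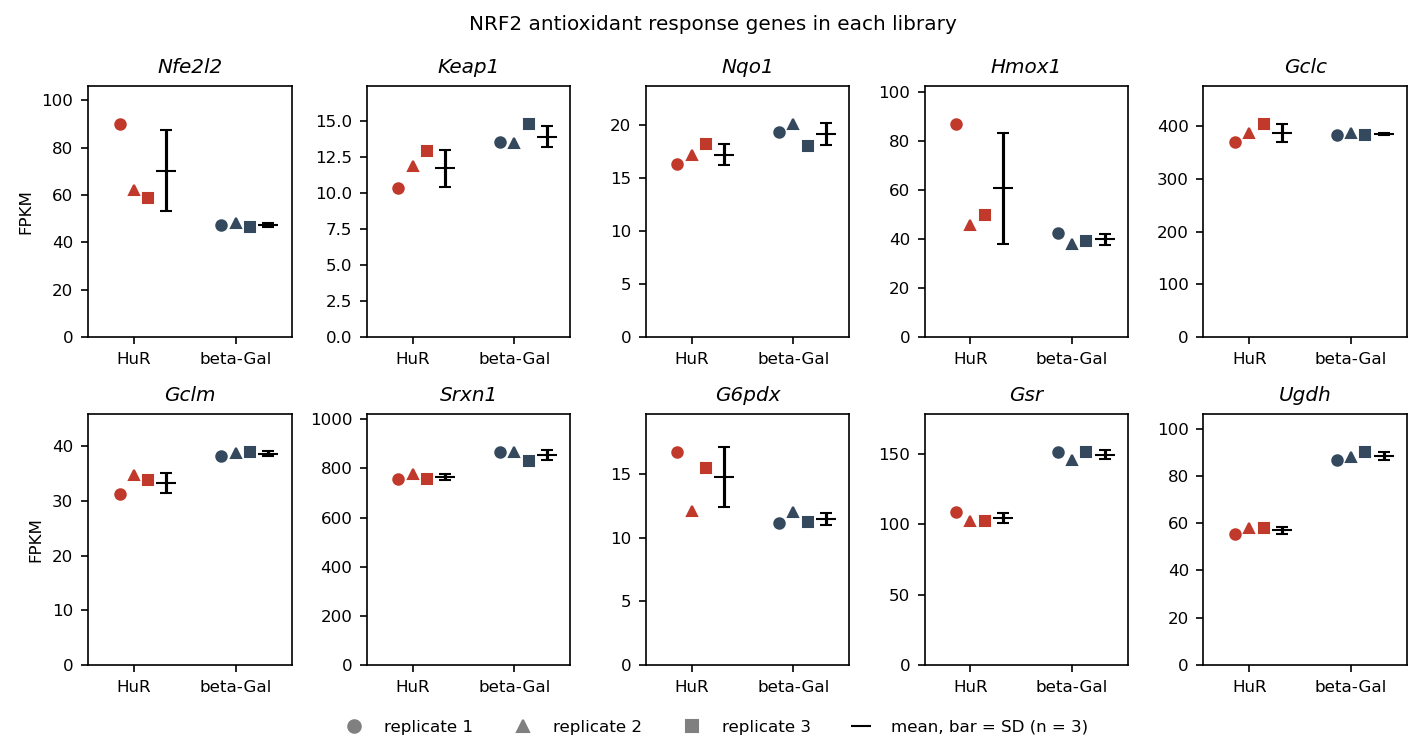
FPKM of each of the 10 genes in each library, HuR (red) and beta-Gal (blue-grey), with the mean and SD of 3 replicates in black. Ugdh and Gsr sit lower in all HuR libraries, and in Nfe2l2 and Hmox1 HuR replicate 1 (circle) stands at 89.8 and 86.9 FPKM, above the other 2 HuR libraries.

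Nfe2l2 (chromosome 2, 75675513 to 75704641, minus strand, GRCm38) was higher in each HuR library. Its level was 89.8, 62.0 and 58.7 FPKM in HuR libraries, against 47.2, 48.3 and 46.6 FPKM in beta-Gal libraries. The beta-Gal values lie within 2 FPKM of each other, and the 3 HuR values lie above them with replicate 1 well apart. The means were 70.2 ± 17.1 in HuR and 47.4 ± 0.895 FPKM in beta-Gal (SD, n = 3 each), with a difference of 0.53 on the log2 scale (SE 0.15, limma adjusted p = 0.0272). Without HuR replicate 1 the difference was 0.34 (SE 0.04, limma adjusted p = 0.0011). The call ended when any 1 beta-Gal library was left out (limma adjusted p 0.0682 to 0.0761) and with no filter on low values (0.0711).

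Keap1, the adaptor that marks NRF2 for degradation (chromosome 9, 21229730 to 21239361, minus strand), had 10.4, 11.8 and 12.9 FPKM in HuR libraries, against 13.5, 13.4 and 14.8 FPKM in beta-Gal libraries. All HuR values lay below all beta-Gal values, although the closest pair was 12.9 and 13.4 FPKM. The log2 difference of -0.23 (SE 0.08) did not pass (limma adjusted p = 0.0549). It passed in 6 of 18 alternatives, among them TPM scaling at -0.34 (0.0324) and without HuR replicate 3 at -0.30 (0.0265). Among those where it did not pass, it was -0.16 without HuR replicate 1 (0.0834). It was -0.19 both with median centring (0.117) and without beta-Gal replicate 3 (0.161). An antisense gene model, Gm16754, shares 510 bases of exon with Keap1 and stayed under 1 FPKM in every library.

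The level of NRF2 messenger RNA was also set against that of its inhibitor within each library. The ratio of Nfe2l2 to Keap1 FPKM was 8.65, 5.24 and 4.55 in HuR libraries, against 3.50, 3.60 and 3.16 in beta-Gal libraries. This ratio is unchanged by any single scaling factor per library. Its ranges could not overlap, since every HuR library was higher for Nfe2l2 and lower for Keap1 than every beta-Gal library. Their separation therefore adds nothing to the values of the single genes. The ratios here are descriptions, for pairs chosen after the values were seen.

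**Figure D2:**
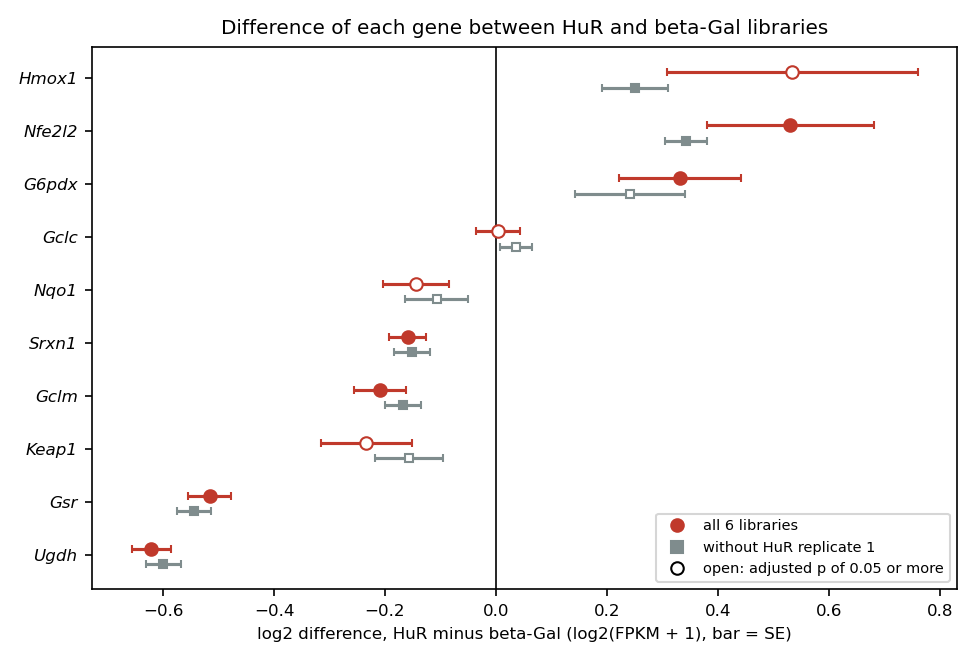
Log2 difference, HuR minus beta-Gal, on the log2(FPKM + 1) scale with its SE for each of the 10 genes, with all 6 libraries (red circles) and without HuR replicate 1 (grey squares), filled where the adjusted p was under 0.05. Hmox1 and Nfe2l2 lie at 0.53 with all libraries and at 0.25 and 0.34 without HuR replicate 1, while Gsr and Ugdh lie at -0.52 and -0.62 and move little.

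Hmox1, the stress-induced heme oxygenase that opens the heme ring (chromosome 8, 75093621 to 75100589, plus strand), showed the widest spread of the 10 genes among HuR libraries. It had 86.9, 45.8 and 49.7 FPKM in HuR libraries, against 42.4, 38.2 and 39.3 FPKM in beta-Gal libraries. HuR replicate 1 was far above the other 2 HuR libraries, which still lay above all beta-Gal libraries. Its mean was 60.8 ± 22.7 in HuR and 40.0 ± 2.19 FPKM in beta-Gal (SD, n = 3 each), and the difference of 0.53 on the log2 scale (SE 0.23) did not pass (limma adjusted p = 0.0965). Without HuR replicate 1 the difference was smaller, 0.25 (SE 0.06), and passed (limma adjusted p = 0.0168), as it did in none of the other 17 alternatives. Mcm5, a part of the replicative helicase, begins 8979 bases downstream on the same strand and rose by 0.81 on the log2 scale.

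Nqo1, the quinone reductase often used as a readout of NRF2 (chromosome 8, 107388225 to 107403206, minus strand), had 16.3, 17.2 and 18.3 FPKM in HuR libraries, against 19.3, 20.1 and 18.05 FPKM in beta-Gal libraries. The groups overlapped, since HuR replicate 3 was above beta-Gal replicate 3. The log2 difference was -0.14 (SE 0.06) and did not pass (limma adjusted p = 0.0896), except under TPM scaling, where it was -0.25 (0.0306). It rested on 381 to 544 reads per library, the fewest of the 10 genes.

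Of the 2 subunits of glutamate-cysteine ligase, the rate-limiting enzyme of glutathione synthesis, the modifier passed the test and the catalytic subunit did not. Gclc, the catalytic subunit (chromosome 9, 77754535 to 77794485, plus strand), had 369, 386 and 403 FPKM in HuR libraries, against 383, 388 and 384 FPKM in beta-Gal libraries. The beta-Gal values fall inside the HuR range, and the log2 difference of 0.00 has a 95% interval of -0.09 to 0.10 (limma adjusted p = 0.944), with a sign that turned under TPM scaling (-0.11), quantile normalization (-0.17) and without HuR replicate 3 (-0.03). Gclm, the modifier subunit that raises the activity of the first (chromosome 3, 122245557 to 122270732, plus strand), had 31.3, 34.7 and 33.9 FPKM in HuR libraries, against 38.1, 38.8 and 38.9 FPKM in beta-Gal libraries. Every HuR library lay below every beta-Gal library, and the fall of 0.21 on the log2 scale passed (SE 0.05, limma adjusted p = 0.011). The ratio of Gclc to Gclm was 11.8, 11.1 and 11.9 in HuR libraries, against 10.05, 9.99 and 9.85 in beta-Gal libraries.

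Srxn1, sulfiredoxin, which reduces overoxidised peroxiredoxins (chromosome 2, 152105516 to 152111376, plus strand), was the most abundant of the 10 genes. It had 756, 779 and 758 FPKM in HuR libraries, against 865, 867 and 830 FPKM in beta-Gal libraries. The groups stood apart by more than the range within either, and the fall was small, 0.16 on the log2 scale (SE 0.03, limma adjusted p = 0.00874). Reads numbered 32100 to 42611 per library.

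Gsr, glutathione reductase, which spends NADPH to return oxidised glutathione to its reduced form (chromosome 8, 33652523 to 33698163, plus strand), fell. It had 109, 102 and 102 FPKM in HuR libraries, against 152, 146 and 151 FPKM in beta-Gal libraries. The means were 104 ± 3.67 in HuR and 150 ± 3.22 FPKM in beta-Gal (SD, n = 3 each), a ratio of 0.698, with -0.52 on the log2 scale (SE 0.04, limma adjusted p = 1.43e-04).

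G6pdx, glucose-6-phosphate dehydrogenase, which opens the pentose phosphate pathway and makes NADPH (chromosome X, 74409483 to 74429194, minus strand), had 16.7, 12.1 and 15.5 FPKM in HuR libraries, against 11.1, 11.99 and 11.2 FPKM in beta-Gal libraries. HuR replicate 2 was barely above the highest beta-Gal library, and the other 2 HuR libraries were clearly above it. The rise of 0.33 on the log2 scale (SE 0.11, limma adjusted p = 0.0466) was close to the threshold. The call ended without HuR replicate 1 (0.095), without HuR replicate 3 (0.122), without any 1 beta-Gal library (0.0825 to 0.121), under TPM scaling (0.0901), with no filter (0.105), without the variance trend (0.0586) and with the replicate number as a block (0.076). G6pdx lies wholly inside Ikbkg, a gene of the opposite strand with 418 bases of shared exon, so their reads may be mixed, and Ikbkg fell, with 21.2 ± 1.08 FPKM in HuR and 26.8 ± 0.522 FPKM in beta-Gal libraries (SD, n = 3 each, limma adjusted p = 0.00196). The ratio of Gsr to G6pdx, a user and a maker of NADPH, was 6.49, 8.42 and 6.61 in HuR libraries, against 13.6, 12.2 and 13.5 in beta-Gal libraries. These ranges could not overlap either, since Gsr was lower and G6pdx higher in every HuR library than in every beta-Gal library.

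**Figure D3:**
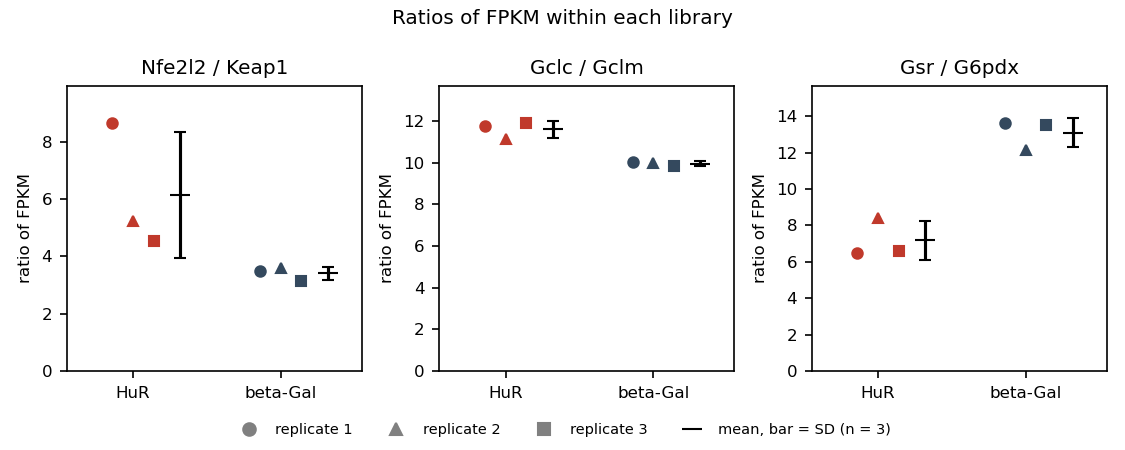
Ratio of FPKM within each library for Nfe2l2 to Keap1, Gclc to Gclm and Gsr to G6pdx, HuR left of beta-Gal, with the mean and SD of 3 replicates in black. In each of the 3 panels the HuR and beta-Gal libraries do not overlap, with HuR and beta-Gal means of 6.15 and 3.42, of 11.6 and 9.96, and of 7.18 and 13.1. For Nfe2l2 to Keap1 and Gsr to G6pdx this follows from the single genes, whose groups do not overlap and lie in opposite directions.

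Ugdh, which oxidises UDP-glucose to UDP-glucuronate (chromosome 5, 65413221 to 65435949, minus strand), fell most. It had 55.3, 58.0 and 57.8 FPKM in HuR libraries, against 86.6, 88.1 and 90.1 FPKM in beta-Gal libraries. The means were 57.1 ± 1.502 in HuR and 88.3 ± 1.74 FPKM in beta-Gal (SD, n = 3 each), a ratio of 0.646, with -0.62 on the log2 scale (SE 0.04, limma adjusted p = 6.47e-05). Of all tested genes 5.66% had a lower difference. The calls of Ugdh, Gsr, Gclm and Srxn1 held in all 18 alternatives tried.

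By level, the order in both groups was Srxn1, Gclc and then Gsr, each separated from the next in every library. In HuR libraries Nfe2l2 at 58.7 to 89.8 FPKM lay above Ugdh at 55.3 to 58.0 FPKM, and Hmox1 at 45.8 to 86.9 FPKM overlapped both. In beta-Gal libraries Ugdh stood alone at 86.6 to 90.1 FPKM, above Nfe2l2 at 46.6 to 48.3 FPKM, and Hmox1 and Gclm overlapped at 38.2 to 42.4 and 38.1 to 38.9 FPKM. Nqo1, Keap1 and G6pdx were lowest in both groups, and in HuR libraries G6pdx at 12.1 to 16.7 FPKM overlapped both Keap1 at 10.4 to 12.9 and Nqo1 at 16.3 to 18.3 FPKM.

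Beside the counts of each list below stand 20.7% of all tested genes that were higher and 24.8% that were lower. Around the 10 genes the regulators of NRF2 moved both ways. Of 12 tested, 4 rose and 5 fell, with a median log2 difference of 0.11. That median was 0.01 without HuR replicate 1 and 0.01 under TPM scaling. With median centring 6 rose and 3 fell. The number that fell was 3 without HuR replicate 1, without HuR replicate 3 or without beta-Gal replicate 1, and 2 without beta-Gal replicate 2 or 3. The messenger RNAs of the small MAF proteins, the DNA-binding partners of NRF2, were higher. Maff had 56.4 ± 14.3 FPKM in HuR and 25.3 ± 2.16 FPKM in beta-Gal libraries. HuR replicate 1 had 72.8 FPKM and the other 2 HuR libraries 49.0 and 47.3 FPKM. Mafg had 29.2 ± 1.68 FPKM in HuR and 20.7 ± 0.893 FPKM in beta-Gal libraries, and Mafk, named after its values were seen, rose by 0.59 on the log2 scale. The genes of the ligase that removes NRF2 split. Cul3, for its scaffold, had 18.4 ± 0.806 FPKM in HuR and 26.8 ± 0.575 FPKM in beta-Gal libraries (limma adjusted p = 2.61e-04). Rbx1, for its RING subunit, rose by 0.26 on the log2 scale. Gsk3b, a kinase that marks NRF2 for another ligase, fell by 0.34 on the log2 scale, and the ubiquitin ligase Syvn1 by 0.22, a call that ended without beta-Gal replicate 2 or 3. Btrc, the receptor for that phosphorylated form, and Dpp3, which competes for KEAP1, fell by 0.28 and 0.15, both named after their values were seen, and each lost its call in 8 alternatives.

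Other known NRF2 targets showed no common direction. Of 30 tested, 9 rose and 12 fell (median 0.00), and the split was 4 higher and 14 lower under TPM scaling, 3 and 14 after quantile normalization, 14 and 10 with median centring, and 7 and 7 without beta-Gal replicate 2. The median was -0.11 under TPM scaling and 0.04 with median centring. Txnrd1, thioredoxin reductase, had 150 ± 9.495 FPKM in HuR and 104 ± 1.90 FPKM in beta-Gal libraries (limma adjusted p = 3.72e-04). Aox1, aldehyde oxidase, and Gsta4, a glutathione transferase for lipid aldehydes, rose by 0.55 and 0.23 on the log2 scale. In the other direction, Slc7a11, the cystine importer, had 6.89 ± 0.221 FPKM in HuR and 13.6 ± 0.630 FPKM in beta-Gal libraries, Me1, malic enzyme, fell by 0.81 and Gstm3, a glutathione transferase whose paralogs could share reads, by 0.60.

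**Figure D4:**
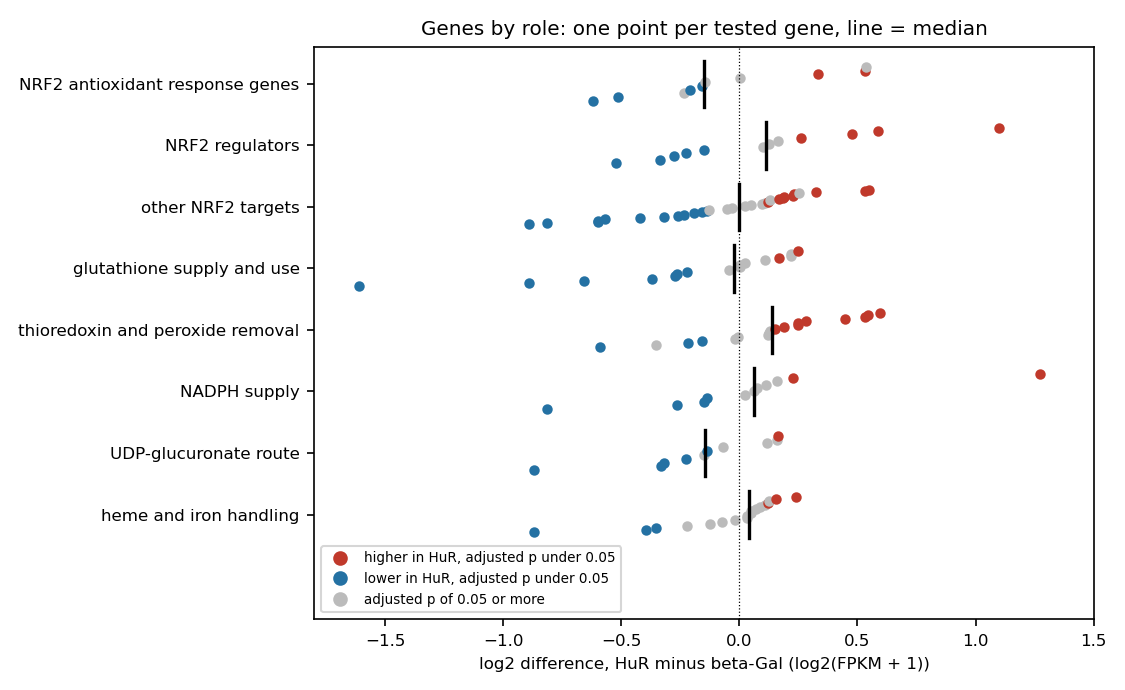
Log2 difference, HuR minus beta-Gal, of each tested gene of the 10 NRF2 antioxidant response genes and of 7 lists ordered by role, red for higher and blue for lower at an adjusted p under 0.05, with the median of each list as a black line. Higher and lower genes stand side by side in each list, with medians between -0.15 and 0.14.

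In glutathione supply and use more genes fell than rose, beside 20.7% higher and 24.8% lower among all tested genes. Of 16 tested genes 2 rose and 7 fell, with a median of -0.02, and 1 rose without HuR replicate 3 or any 1 beta-Gal library. The number that fell stayed at 7 when any 1 library was left out. Under TPM scaling 0 rose and 8 fell with a median of -0.13, after quantile normalization 1 and 8 with -0.14, and with median centring 4 and 7 with 0.02. Besides Slc7a11, its partner chain Slc3a2 fell by 0.22 on the log2 scale, and Chac1, which degrades glutathione, had 26.4 ± 4.71 FPKM in HuR and 81.7 ± 1.74 FPKM in beta-Gal libraries (limma adjusted p = 1.48e-04). Gpx4, the lipid hydroperoxide peroxidase, and Oplah, which recycles oxoproline, rose by 0.17 and 0.25, calls that ended under TPM scaling (0.111 for Gpx4 and 0.216 for Oplah). The call of Gpx4 also ended after quantile normalization (limma adjusted p = 0.0648). That of Oplah also ended without HuR replicate 2, HuR replicate 3 or any 1 beta-Gal library (limma adjusted p 0.0562 to 0.0778). In thioredoxin and peroxide removal 9 of 18 genes rose and 3 fell, beside 20.7% and 24.8% of all tested genes. The median of this list was 0.14. The number that rose was 7 under TPM scaling (median 0.03), 7 after quantile normalization (0.07) and 12 with median centring (0.18). Sesn2, a stress-induced sestrin, had 19.6 ± 1.04 FPKM in HuR and 12.6 ± 0.450 FPKM in beta-Gal libraries, and Txnip, the thioredoxin inhibitor, rose by 0.54 on the log2 scale. The mitochondrial peroxiredoxin Prdx3, the related sestrin Sesn1 and catalase, Cat, fell by 0.22, 0.59 and 0.16.

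Among 11 NADPH-supply genes beside G6pdx, 2 rose and 4 fell, and 4 rose without HuR replicate 1. The median was 0.06, but -0.05 with TPM scaling and -0.04 with quantile normalization. Rpia, an isomerase of the pentose phosphate pathway, had 16.6 ± 1.19 FPKM in HuR and 6.29 ± 0.223 FPKM in beta-Gal libraries (limma adjusted p = 3.83e-05), and Taldo1, transaldolase, rose by 0.23, a call lost with TPM scaling or quantile normalization. Pgd, the second NADPH-making step of that pathway, and Idh1, cytosolic isocitrate dehydrogenase, fell by 0.14 and 0.27, and Rpe, named after its values were seen, by 0.15, a call lost in 10 alternatives.

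On the UDP-glucuronate route, Ugdh fell together with genes before and after it. Of 10 tested genes 1 rose and 5 fell, with a median of -0.14, and 3 fell without beta-Gal replicate 2 or 3. Under TPM scaling 0 rose and 5 fell, with a median of -0.25. Ugp2, which makes UDP-glucose, had 196 ± 11.1 FPKM in HuR and 247 ± 5.49 FPKM in beta-Gal libraries, and Slc35d1, a transporter of UDP-glucuronate into the endoplasmic reticulum, had 9.07 ± 0.559 FPKM in HuR and 17.4 ± 0.755 FPKM in beta-Gal libraries (limma adjusted p = 1.03e-04). Ugt1a9, a glucuronosyltransferase, fell by 0.22, as did Ugt1a6b by 0.32 and Gulo by 0.14, both named after their values were seen. The Ugt1a genes share exons, so their reads are uncertain. The call of Ugt1a6b ended without beta-Gal replicate 2 or 3, and that of Gulo in 6 alternatives. Akr1a1, a reductase of glucuronate, rose by 0.16, a call lost with TPM scaling or quantile normalization.

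Most heme and iron genes around Hmox1 did not pass, with 3 higher, 3 lower and 12 of 18 not called. The median was 0.04, or -0.06 under TPM scaling, and 1 rose when any 1 beta-Gal library was left out. Slc40a1, the iron exporter ferroportin, had 8.15 ± 0.996 FPKM in HuR and 15.7 ± 0.729 FPKM in beta-Gal libraries, and Fech, the last enzyme of heme synthesis, and Flvcr1, a heme exporter, fell by 0.35 and 0.39 on the log2 scale. Hp and Hpx, plasma carriers of hemoglobin and heme, rose by 0.24 and 0.15, and Blvrb, a biliverdin reductase, by 0.12. The call of Hp ended in 2 of 18 alternatives, no filter and quantile normalization. That of Hpx ended in 9, among them TPM scaling, the replicate block (0.0663) and any 1 beta-Gal library left out. That of Blvrb ended in 7, the replicate block (0.0706) included, and its sign turned under quantile normalization (-0.0065). For Hp and Hpx quantile normalization left no difference, because it gives genes of the same rank the same value in every library. Its outcome is therefore no test of the calls of Hp and Hpx.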

How the data were processed

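RNA of 6 samples of mouse hepatocytes, 3 per group, was sequenced, with groups and replicate numbers taken from the sample titles. The deposited table holds FPKM for 54118 gene models, with their length. HISAT2 2.0.5, featureCounts 1.5.0-p3, DESeq2 1.16.1 and build GRCm38.p6 are named, with no role or order, per the submitters' processing notes. Strand setting and RNA selection are not given in the sources used here. FPKM times length was a whole multiple of 1 step for 100% of values (tolerance 0.001), which gave the reads. The authors' library totals are proportional to median-of-ratios size factors over 15739 genes, so the deposited values are scaled between libraries.

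The main test was limma 3.58.1 (R 4.3.3) on log2(FPKM + 1), with a mean-variance trend, for genes that reached 1 FPKM in 3 or more of the 6 libraries, with group as the only term and two-sided p-values adjusted over all genes. The step was also run on simulated data, with a single spread for all genes taken from the beta-Gal libraries. Far fewer genes were changed there than were called here. That setting is unlike these data, so no conclusion about the calls is drawn from it. The members and lists were chosen with earlier results of these data known. Lists are described by counts and medians, with no set test. The text names Elavl1, the 10 genes, up to 3 called genes per direction and list with the smallest adjusted p, neighbours a result turns on and cell type markers. Mafk, Btrc, Dpp3, Rpe, Ugt1a6b and Gulo fall outside this rule and were named after their values were seen. The 18 alternatives were other pseudocounts (0.1, 0.5), filters, scalings and variance models, limma voom on recovered reads, coding genes only, a replicate block and each library left out. Those for Elavl1, for genes outside the 10 and some for lists were added after the data were seen. Sequences are from RefSeq (promoters, GRCm38.p6) and GENCODE M21 (3′ UTRs, GRCm38). All 10 genes have the deposited coordinates in GENCODE M21, while gene starts in the RefSeq table can differ. Figures were drawn with matplotlib 3.10.9 and tables made with pandas 2.3.3 in Python 3.11.15.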

Additional observations from a re-analysis of the deposited data

How the results depend on the processing

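The falls of Ugdh, Gsr, Gclm and Srxn1 kept direction and call in all 18 alternatives, with log2 differences of -0.73 to -0.58, -0.63 to -0.47, -0.32 to -0.17 and -0.27 to -0.12. The sources link same-numbered libraries by the number only. Their deviations from the group means correlated at -0.0294, 0.000668 and -0.0143, and no HuR library correlated best with its own number. With 3 libraries per group this cannot show whether same-numbered libraries shared a culture, an animal or a batch. The number of the 10 genes that rose, 2 in the main test, was 1 under TPM scaling, 1 without the variance trend, 1 with the replicate block and 0 with no filter, and 0 to 2 with 1 library left out. Under the replicate block Keap1 passed (adjusted p 0.036) and G6pdx did not, and over all genes 2084 were higher and 2465 lower. The median of the 10 genes was -0.26 under TPM scaling, where 1543 of all tested genes were higher and 3732 lower against 2334 and 2803 in the main test, with the median of all genes at -0.10, and median centring turned this balance to 2885 higher and 2391 lower. The sign of Gclc turned under TPM scaling (-0.11), quantile normalization (-0.17) and without HuR replicate 3 (-0.0277), with a range of -0.0277 to 0.0364 when 1 library was left out, and that of Blvrb under quantile normalization (-0.0065). Over all lists 26 of 103 tested genes rose and 35 fell in the main test. Among all tested genes 20.7% were higher and 24.8% lower. The counts over all lists were 16 and 39 under TPM scaling, 16 and 36 after quantile normalization and 39 and 29 with median centring. The causes were not tested. Of 46 other named genes with a call, Elavl1 and the hepatocyte markers left out of this tally, 33 kept their call in each alternative that tested them. The fewest reads behind a value of the 10 genes were 381, for Nqo1, and 3 libraries per group limit the precision of every difference.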

Other observations

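Directly downstream of Ugdh, a gene model of biotype TEC moved against it. Gm43311 begins 193 bases beyond the end of Ugdh on the same strand and shares no exon with it. It had 2.01, 2.78 and 3.05 FPKM in HuR libraries, against 0.252, 0.362 and 0.148 FPKM in beta-Gal libraries, a difference of 1.52 on the log2 scale (SE 0.14, limma adjusted p = 2.85e-04). All HuR values lay above all beta-Gal values, while Ugdh itself was lower in every HuR library, and the call held in each of the 16 alternatives that tested it. Gm43311 reached 1 FPKM only in HuR libraries, so it passed the filter on low values through that group alone. Its adjusted p and calls are therefore given as description, not as support. This gene model was looked at because it neighbours Ugdh.

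Mcm5, downstream of Hmox1 on the same strand, had 5.17, 5.07 and 4.87 FPKM in HuR libraries, against 2.34, 2.48 and 2.48 FPKM in beta-Gal libraries (log2 difference 0.81, SE 0.06, limma adjusted p = 1.12e-04). Unlike Hmox1, its HuR replicate 1 was close to the other HuR libraries.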
